A study of Drosophila melanogaster with 10 samples.

Results

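Messenger RNA of 7 genes, each with at least 1 probe set that was highest around dawn, was followed over the day in fly heads. The genes are CG13305, CG42329, CG8170, CG16798, CG7724, CG31205 and hts. They were chosen by their waveform over these same 10 arrays, with peaks near ZT0 to ZT2, so their time course is a description here and is given without a test. They are 7 of 11982 genes that have a probe set of their own in the platform annotation, and 12 of the 18769 probe sets that are not controls read them. A probe set is a group of short probes that reads 1 transcript region. CG42329 has 2 probe sets, hts has 5 and the other genes have 1 each.

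The study measured heads of flies of the yw strain, its only genotype, which all samples' titles call Control. By fly convention, yw stands for the body colour mutation yellow and the eye colour mutation white. The sources used here name no treatment and give neither age and sex nor the number of heads pooled. Zeitgeber time (ZT) counts hours from lights on by convention, and the light schedule itself is not stated. The arrays cover 6 times, with 3 arrays each at ZT3 and ZT15 and 1 array each at ZT7, ZT11, ZT19 and ZT23. Separate cultures for the replicates are not stated, so errors and p-values cover the spread among these samples alone, and that spread may be technical.

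In the fly clock, the proteins CLK and CYC switch on per, tim, vri and Pdp1 around dusk. VRI then represses and PDP1 activates the Clk gene, and for this reason Clk RNA runs opposite to per and tim and is known to be high near dawn. Transcripts of this dawn phase in the head include clock genes, metabolic enzymes and genes of unknown role. Among the genes described here, CG42329 encodes a predicted membrane-bound acyltransferase of the NRF-6 type. CG8170 encodes a predicted serine protease, and CG31205 a predicted serine protease homologue. The gene hts encodes adducin, which joins spectrin to the ends of actin filaments beneath the plasma membrane. No role is stated here for CG13305, CG16798 and CG7724.

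All levels below are on the natural log scale of the deposited values. That scale likely equals the log2 output of GCRMA, so 1 unit is read as a 2-fold difference. Were the deposited numbers plain intensities instead, differences in log2 units would be 1.44 times as large. The 10 arrays fell by clustering into a set of 4, holding replicates 1 and 2 of ZT3 with replicates 2 and 3 of ZT15, and a set of 6, with 1 array at each of the 6 times. Correlations over 12991 tested probe sets were 0.968 to 0.992 within the sets and 0.720 to 0.830 between them. Markers of the head were high on all arrays, with a median of 13.8 in the set of 4, against 13.7 in the set of 6, for 7 photoreceptor genes, and of 10.1 against 10.6 for 10 neuron genes. In the set of 4, 12 of 14 testis markers were more than 2 units lower, with a median of 4.56, against 11.1 in the set of 6. Transcripts foreign to the head thus differed between the sets, and so did some head markers. Against the set of 6, the set of 4 differed by -1.83 in the neuron gene para, -1.60 in brp, -1.27 in Rdl and -0.73 in cac. The neuron genes ChAT and Gad1 differed the other way, by 0.38 and 0.11. The photoreceptor gene inaC differed by 0.71, and the glial genes e and Gs2 by 1.10 and -0.31. Other head markers moved little, such as Snap25 by -0.03 and trpl by 0.04. Fewer cells of a type and less RNA per cell cannot be told apart in such samples. The set of 6 is a complete series over the 6 times, and the set of 4 gives a second pair of ZT3 and ZT15.

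Each probe set was fitted with a cosine of 24 hours over the 10 arrays, with the array set as a block. The amplitude is the height of the fitted peak above the fitted mean. For these 10 arrays the block leaves the fitted amplitude and peak as they are without it and changes only the error. Of the 12 probe sets, 11 passed the filter (mean level of 4 or more) and were fitted. Of these 11, 8 had an adjusted p under 0.05 (limma), at least 1 for each of the 7 genes. Without the block 0 of the 11 did. Over all tested probe sets 0.508% passed with the block and 0.0385% without it. The genes were chosen by this waveform, so the count of 8 says only how they were picked. The other 3 fitted probe sets all belong to hts.

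The acyltransferase gene CG42329 had a large swing on both of its probe sets. Probe set 1637590_at was at 9.75, 10.13 and 8.73 at ZT3, 7.67 at ZT7, 5.95 at ZT11, 6.15, 7.41 and 7.68 at ZT15, 7.10 at ZT19 and 9.00 at ZT23. All 3 ZT3 arrays and the ZT23 array were above every other array. Its amplitude was 1.49 ± 0.11 (SE), which is 7.92-fold between peak and trough, with a fitted peak at ZT1.10 ± 0.337 h. Probe set 1636678_at was at 7.55, 8.67 and 7.19 at ZT3, 6.53 at ZT7, 5.35 at ZT11, 5.20, 5.62 and 6.13 at ZT15, 6.03 at ZT19 and 7.15 at ZT23. Its amplitude was 1.15 ± 0.13 and its fitted peak ZT1.73 ± 0.600 h. The peaks of these 2 probe sets differ by less than their combined SE, and their levels correlated at 0.963 over the 10 arrays after array set means were subtracted.

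The protease gene CG8170 had the earliest fitted peak, ZT0.0428 ± 0.504 h, with an amplitude of 0.95 ± 0.12. It was at 5.86, 6.38 and 5.42 at ZT3, 4.90 at ZT7, 4.23 at ZT11, 4.10, 4.88 and 4.85 at ZT15, 5.14 at ZT19 and 6.29 at ZT23. In the set of 6 its ZT23 level was 0.88 above that at ZT3 and its lowest level was at ZT15. The other protease-like gene, CG31205, moved less. It was at 11.52, 11.52 and 10.36 at ZT3, 9.78 at ZT7, 9.22 at ZT11, 9.14, 10.72 and 10.81 at ZT15, 9.65 at ZT19 and 10.04 at ZT23. The levels at ZT3 and ZT15 overlapped, and its arrays of the set of 4 were higher at both times. Its amplitude was 0.50 ± 0.06, or 2.00-fold between peak and trough, and its fitted peak ZT1.43 ± 0.599 h.

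CG13305 had the largest difference between ZT7 and ZT3 in the set of 6. It was at 9.85, 9.74 and 10.50 at ZT3, 7.71 at ZT7, 6.75 at ZT11, 6.84, 7.82 and 7.72 at ZT15, 7.51 at ZT19 and 9.69 at ZT23. In that set, ZT7 minus ZT3 was -2.79, a 6.92-fold difference and 74.5% of its whole range over the day. Its amplitude was 1.54 ± 0.23, or 8.49-fold between peak and trough, with a fitted peak at ZT0.939 ± 0.676 h.

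CG16798 lay close to the filter at 4. It was at 5.19, 4.82 and 4.94 at ZT3, 3.78 at ZT7, 3.29 at ZT11, 3.34, 3.87 and 3.31 at ZT15, 3.72 at ZT19 and 5.18 at ZT23. The dawn arrays were above 4 and all others below it, and its mean of 4.14 passed the filter through the dawn arrays. Its amplitude of 0.93 ± 0.12 was 0.75 with a pseudocount of 16, so its size is uncertain. Its fitted peak was at ZT0.721 ± 0.588 h.

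CG7724 had the smallest amplitude of the 8 probe sets past the threshold, 0.44 ± 0.05, or 1.84-fold between peak and trough. It was at 10.17, 10.14 and 8.92 at ZT3, 8.53 at ZT7, 8.16 at ZT11, 8.21, 9.36 and 9.47 at ZT15, 8.54 at ZT19 and 8.97 at ZT23. Within each array set the ZT3 level was above the ZT15 level, while over both sets the 2 times overlapped. Its fitted peak was at ZT0.838 ± 0.476 h.

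**Figure D1:**
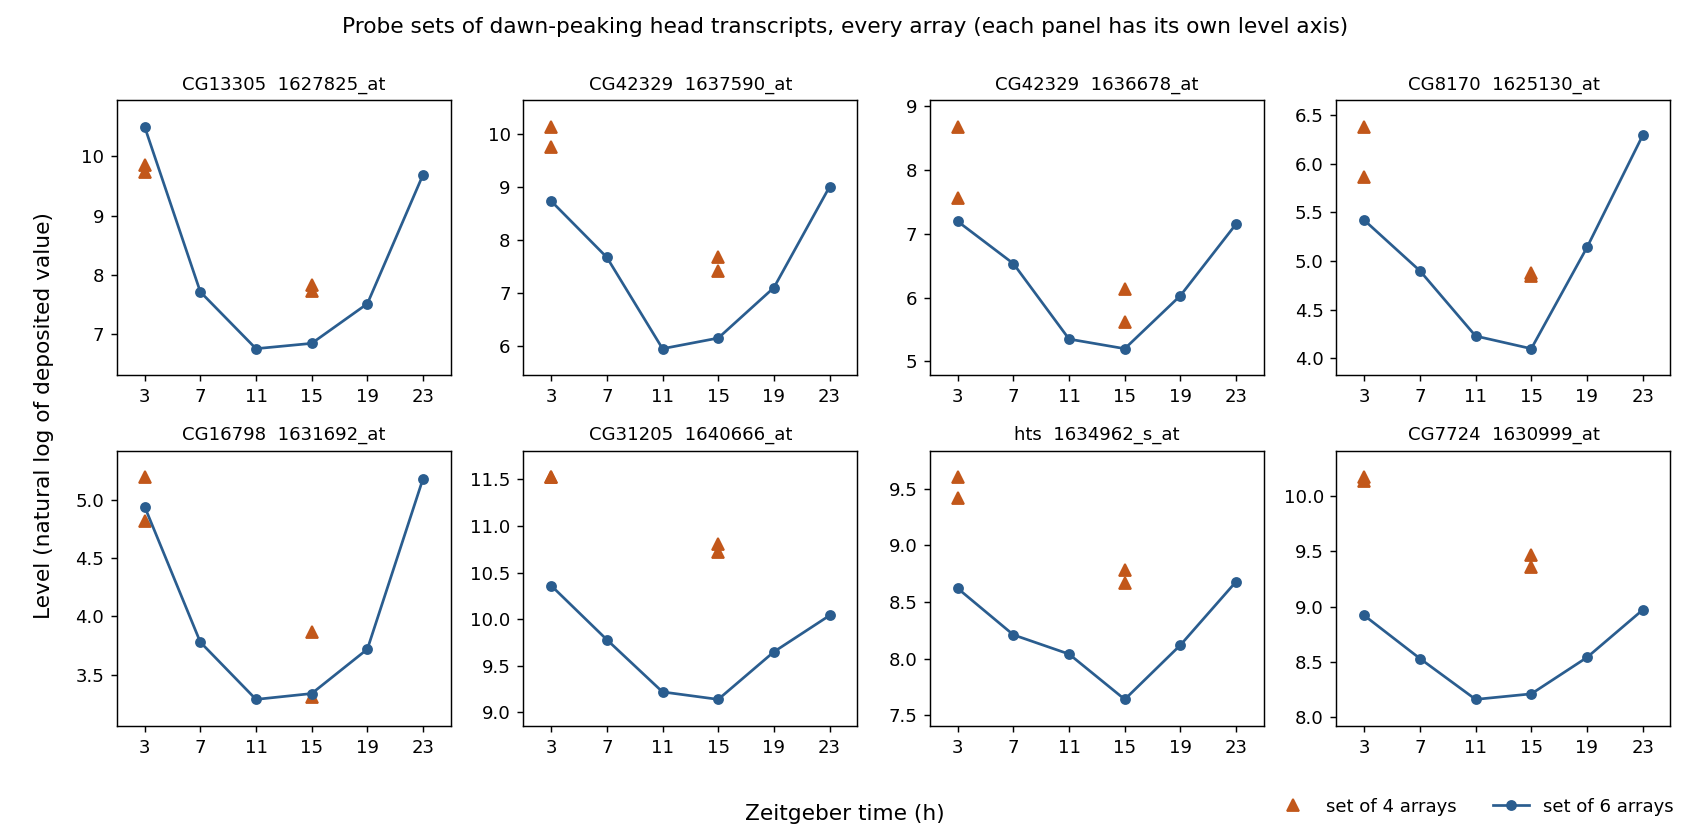
Level (natural log of the deposited value, vertical axis) against zeitgeber time in hours for the 8 probe sets past the threshold, with a triangle for each array of the set of 4 and joined circles for the set of 6. Every panel is high at ZT3 and ZT23 and lowest at ZT11 or ZT15, and the triangles lie above the circles at both times in all panels but those of CG13305 and CG16798.

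In the set of 6, all 8 probe sets were higher at ZT3 and at ZT23 than at each of ZT7, ZT11, ZT15 and ZT19. Over all tested probe sets 7.35% had this order. It is the property the genes were chosen for. The highest array was ZT3 for 3 probe sets and ZT23 for 5, and the lowest was ZT11 for 4 and ZT15 for 4. The share of the daily range that was lost between ZT3 and ZT7 ran from 23.4% in CG8170 to 74.5% in CG13305, with CG16798 at 61.5%. Each share rests on 1 array a time. CG13305 was at 10.50 on the ZT3 array of this set and at 9.85 and 9.74 on the other ZT3 arrays. CG8170 was highest at ZT23, so part of its range lies outside the step from ZT3 to ZT7. The fitted cosine is symmetric and does not describe such differences, and whether the shapes differ was not tested.

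The fitted peaks of the 8 ran from ZT0.0428 to ZT1.73 in the order CG8170, CG16798, CG7724, CG13305, CG42329 (1637590_at), CG31205, hts (1634962_s_at) and CG42329 (1636678_at). Each gap between neighbours in that order was smaller than the combined SE of the 2 peaks. The ends, CG8170 (SE 0.504 h) and CG42329 (1636678_at, SE 0.600 h), lay further apart than the sum of their SEs. That pair was picked as the extremes, and its gap was not tested. The amplitudes of the 8 ran from 0.44 to 1.54. The median amplitude of the 11 fitted probe sets was 0.67, beside 0.13 over all tested. The genes were chosen by this waveform, so the gap between these medians describes the choice. The value of 0.67 is that of hts (1634736_at), which did not pass and had its fitted peak at ZT8.91. With any 1 array left out, the peaks of the 8 stayed between ZT23.8 (CG8170) and ZT2.08 (hts 1634962_s_at). Of all tested probe sets, 11 (0.0847%) passed the threshold with fitted peaks from ZT0 to ZT2, and 8 of these are those described here. The other 3 were Ugt35B1 (ZT1.43), a UDP-glycosyltransferase gene, Jhbp15 (ZT1.92), named for juvenile hormone binding, and Clk (ZT1.96). Just outside lay 2 probe sets of Ank2 (ZT23.8 and ZT23.6) before ZT0, and the cuticle protein gene Cpr72Ec (ZT2.12) and Ugt302C1 (ZT2.24) after ZT2. Without the array set block Clk alone of these 7 probe sets passed. With the block, the calls of Jhbp15, Cpr72Ec and Ugt302C1 held in 1, 4 and 2 of 10 fits with 1 array left out.

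**Figure D2:**
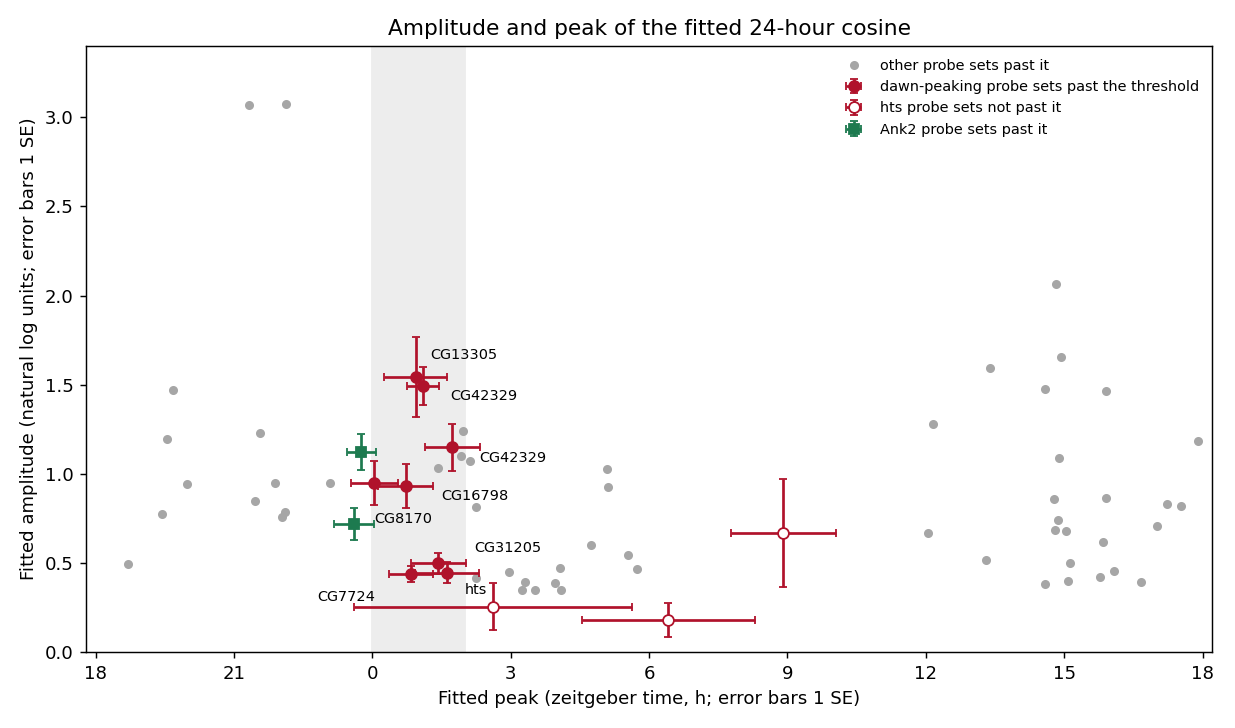
Fitted amplitude (natural log units) against fitted peak (zeitgeber time in hours), with error bars of 1 SE, for the fitted probe sets of the 7 genes (filled circles past the threshold, open circles for hts probe sets not past it), Ank2 (squares) and all other probe sets past the threshold (grey points). The shaded band spans ZT0 to ZT2 and holds 8 filled circles, with amplitudes of 0.44 to 1.54.

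ZT15 and ZT3 are the times with replicates. CG42329 (1637590_at) averaged 7.08 ± 0.81 at ZT15 and 9.54 ± 0.73 at ZT3 (SD, n = 3 each), a difference of -2.46 ± 0.15 (SE with the array set as a block), which is 5.49-fold lower at ZT15. Its second probe set averaged 5.65 ± 0.47 at ZT15 and 7.80 ± 0.77 at ZT3 (SD, n = 3 each), a difference of -2.15 ± 0.33. CG13305 averaged 7.46 ± 0.54 at ZT15 and 10.03 ± 0.41 at ZT3, a difference of -2.57 ± 0.35 or 5.92-fold lower at ZT15. These 3 probe sets had the largest differences among the 11.

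CG16798 averaged 3.51 ± 0.31 at ZT15 and 4.98 ± 0.19 at ZT3, and CG8170 4.61 ± 0.44 at ZT15 and 5.89 ± 0.48 at ZT3. Their differences were -1.48 ± 0.20 and -1.28 ± 0.16. CG31205 differed by -0.91 ± 0.13, hts (1634962_s_at) by -0.85 ± 0.11 and CG7724 by -0.73 ± 0.09. In these last 3 the SD over the 3 arrays of a time, up to 0.94 in CG31205 at ZT15, was near the size of the difference, and the 2 times overlapped. In 5 of the 11 fitted probe sets every ZT15 array was below every ZT3 array, as it was in 2.42% of all tested. The median difference over the 11 was -0.91, beside 0.0061 over all tested probe sets. With the block 1 of the 11 passed the threshold, CG42329 (1637590_at), and without it 0 did. Over all tested probe sets 0.154% passed with the block, 0.0539% as lower at ZT15, and 0.0308% without it. As with the waveform, these arrays chose the genes.

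The 2 array sets gave the difference separately. CG42329 (1637590_at) differed by -2.40 in the set of 4 and by -2.57 in the set of 6, CG8170 by -1.26 and -1.32, and CG7724 by -0.74 and -0.71. CG13305 differed by -2.02 in the set of 4 and by -3.66 in the set of 6. That gap, the largest among the 11, did not pass the test of the difference between sets (interaction adjusted p = 0.39, limma). No probe set of the 12991 tested passed that interaction, while 996 had an unadjusted p under 0.05 (limma). The interaction used 6 arrays, with 1 array a time in the set of 6, so not passing does not show that the sets agree. Over the 8 probe sets past the rhythm threshold, the difference ran from -2.40 to -0.74 in the set of 4 and from -3.66 to -0.71 in the set of 6.

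**Figure D3:**
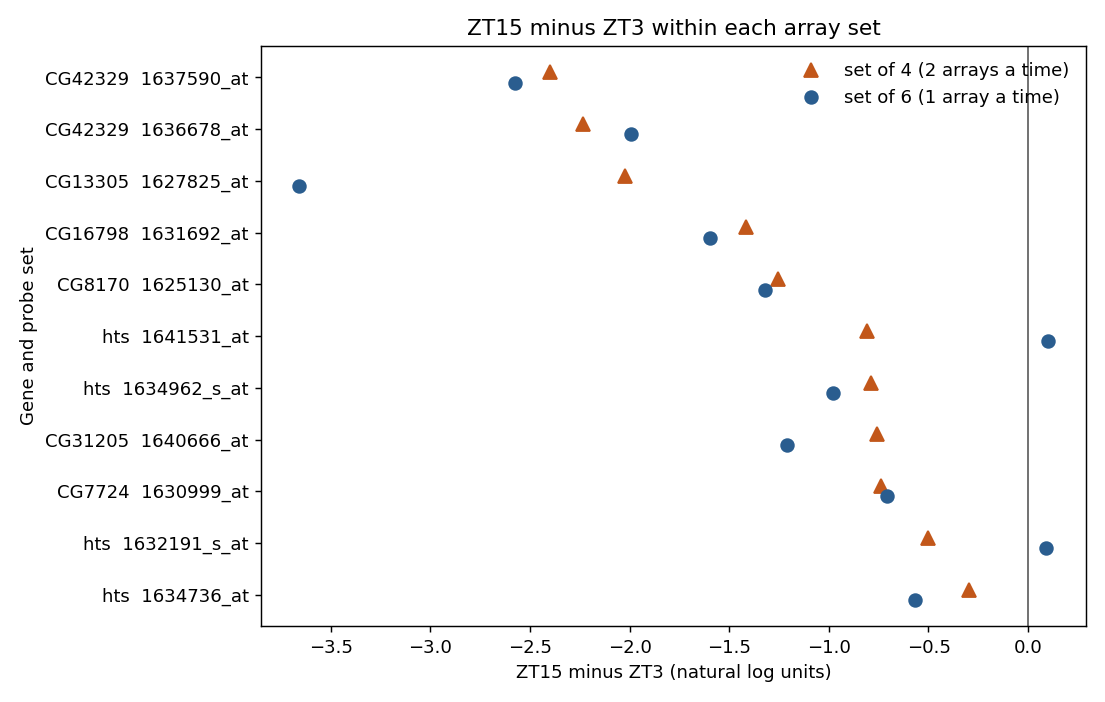
ZT15 minus ZT3 (natural log units, horizontal axis) for the 11 fitted probe sets, with triangles for the set of 4 (means of 2 arrays a time) and circles for the set of 6 (1 array a time). All triangles lie below 0, and the circles of hts 1641531_at and hts 1632191_s_at lie at 0.10 and 0.09.

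The levels of these genes also differed between the array sets, a measure that the choice of genes did not use. CG31205 was higher in the set of 4 by 1.45 ± 0.09 (SE, adjusted p = 4.1e-06, limma), CG42329 (1637590_at) by 1.31 ± 0.16 (0.00013), CG7724 by 1.23 ± 0.07 (2.3e-06) and hts (1634962_s_at) by 0.90 ± 0.09 (5.9e-05). CG42329 (1636678_at) and CG8170 were higher in the set of 4 by 0.75 ± 0.21 (adjusted p = 0.012, limma) and 0.48 ± 0.16 (0.030). CG13305 and CG16798 differed by 0.61 ± 0.33 and 0.25 ± 0.18 and did not pass (adjusted p = 0.13 and 0.23, limma). In all, 7 of the 11 fitted probe sets passed, 6 higher and 1 lower in the set of 4, and the lower one was hts (1641531_at) with a difference of -0.75 ± 0.23 (adjusted p = 0.017, limma). Among all tested probe sets 67.7% passed, 41.6% higher and 26.1% lower, so the share is near the background. The sets were drawn by clustering from the same arrays, so this describes their distance. Testis markers move with the set, as do accessory gland markers, 11 of 12 of them lower by over 2 in the set of 4 (median 3.69, against 12.5 in the set of 6). So do hemocyte markers, at a median of 9.56 in the set of 4, against 8.47 in the set of 6. The fat body median was 14.0 against 13.3, but most tested fat body markers moved little. Yp1, Yp2, Yp3, apolpp and apoLTP were higher in the set of 4 by 0.18, 0.28, 0.10, 0.23 and 0.12. The other tested ones, fit and Lsp2, were higher by 0.75 or more. The part of these tissues in the result was not tested.

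The 5 probe sets of hts did not move together. Probe set 1634962_s_at had the dawn waveform, at 9.60, 9.42 and 8.62 at ZT3, 8.21 at ZT7, 8.04 at ZT11, 7.64, 8.78 and 8.67 at ZT15, 8.12 at ZT19 and 8.68 at ZT23. Its amplitude was 0.45 ± 0.06 and its fitted peak ZT1.61 ± 0.692 h. Probe set 1632191_s_at, which has the highest mean of the 5, was at 9.98, 9.99 and 9.89 at ZT3, 9.96 at ZT7, 10.26 at ZT11, 9.98, 9.44 and 9.53 at ZT15, 9.85 at ZT19 and 9.89 at ZT23. It varied by 0.41 over the set of 6 and had an amplitude of 0.18 ± 0.10 with no clear phase (fitted peak ZT6.42 ± 1.88 h). Its ZT15 level was 0.50 below ZT3 in the set of 4 and 0.09 above it in the set of 6.

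The other 2 fitted hts probe sets did not pass the rhythm threshold either. Probe set 1641531_at ranged from 4.09 on ZT15 replicate 3 to 5.97 at ZT23, with an amplitude of 0.26 ± 0.13 and a fitted peak at ZT2.62 ± 3.01 h. That amplitude was 0.14 without ZT3 replicate 1 and also without ZT15 replicate 3. Probe set 1634736_at was at 6.53 at ZT11 and between 4.26 and 5.39 on the other arrays. Its amplitude of 0.67 ± 0.30 (fitted peak ZT8.91 ± 1.13 h) was 0.22 without ZT11 and 1.22 without ZT7. On the ZT11 array, 8 of 13 measured ovary markers were also at their highest. The eggshell gene Vm26Aa was at 11.44 there and at 5.56 or less elsewhere, and Cp36 was at 10.60 and at 4.92 or less. The remaining markers were highest on other arrays. Cp15 was at 12.29 on ZT3 replicate 3 and at 7.34 at ZT11, and Cp18 was also highest on ZT3 replicate 3. The ovary gene osk was at 6.74 on ZT3 replicate 3 and at 8.83 at ZT11. Probe set 1634736_at had its second highest level, 5.39, on ZT3 replicate 3. The adducin gene is known for its role in the ring canals of the ovary. The part of ovarian RNA in the ZT11 and ZT3 replicate 3 values was not tested. Probe set 1633226_at, at 2.82 to 4.39, did not pass the filter and was not fitted. After array set means were subtracted, 1632191_s_at, 1634736_at and 1641531_at correlated with 1634962_s_at at 0.385, -0.0082 and 0.638 over the 10 arrays. The files do not say which hts transcripts each probe set reads.

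**Figure D4:**
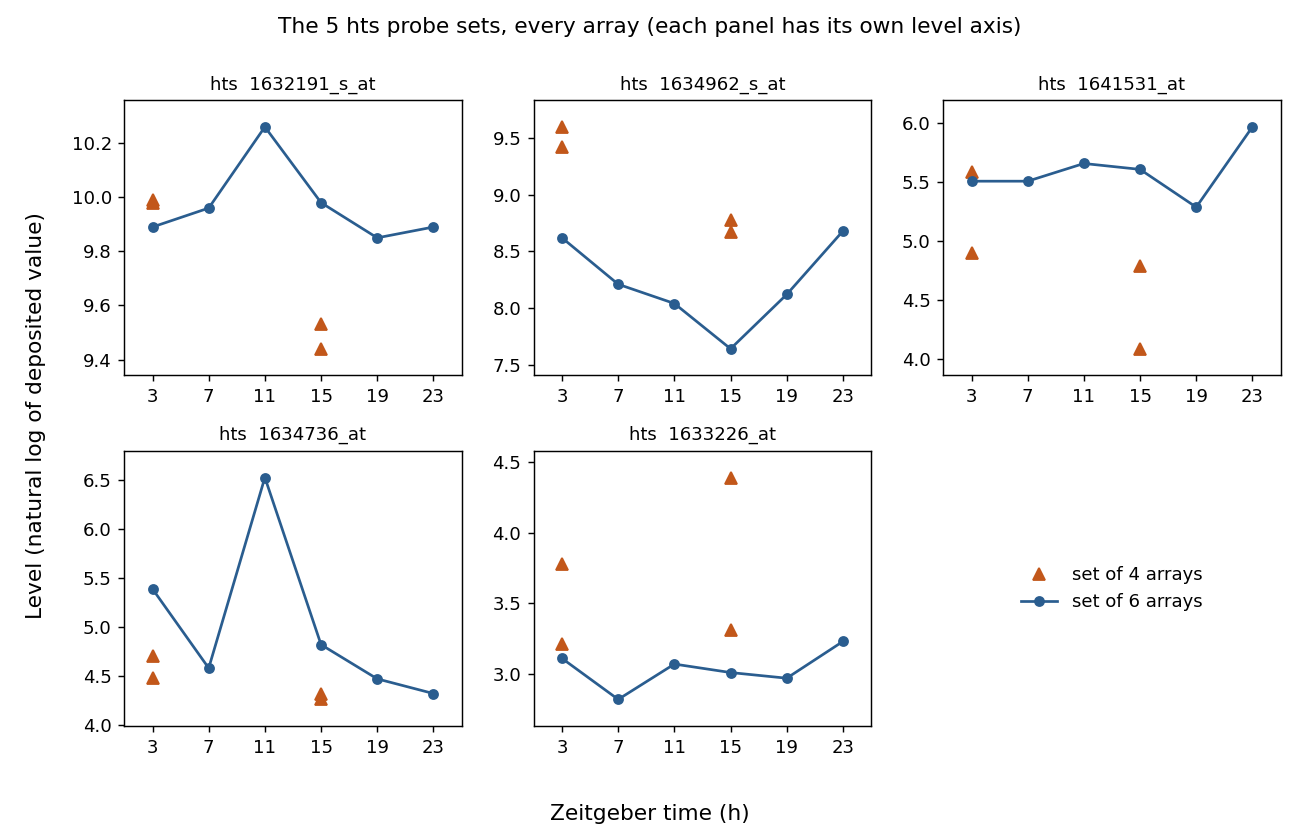
Level (natural log of the deposited value) against zeitgeber time in hours for the 5 hts probe sets, with triangles for the set of 4 and joined circles for the set of 6. Probe set 1634962_s_at is high at ZT3 and ZT23, 1634736_at stands at 6.53 at ZT11, and 1632191_s_at varies by 0.41 over the set of 6.

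Among themselves, the 8 probe sets correlated at 0.840 to 0.987 (28 pairs, median 0.935) over the 10 arrays after array set means were subtracted. Over the 6 arrays of the set of 6 alone they correlated at 0.821 to 0.989. The points share arrays, and the genes were chosen for a common waveform. The closest pair of different genes was CG42329 (1637590_at) and CG7724, at 0.987, although their amplitudes were 1.49 and 0.44. The loosest was CG16798 and CG42329 (1636678_at).

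Outside the 7 genes, which were left out of this ranking, the transcript most like 3 of them was Ugt35B1, whose product belongs to the UDP-glycosyltransferases that make small molecules soluble. It correlated at 0.989 with CG7724, 0.988 with CG42329 and 0.969 with CG31205 over the 10 arrays after array set means were subtracted. Ugt35B1 was at 12.46, 12.43 and 11.51 at ZT3, 10.92 at ZT7, 9.71 at ZT11, 9.70, 10.41 and 10.79 at ZT15, 10.51 at ZT19 and 11.55 at ZT23. CG31207 came next for all 3, at 0.971 for CG7724, 0.956 for CG42329 and 0.945 for CG31205. CG15213 (0.955) for CG42329 and CG32407 (0.940) for CG31205 completed those genes' 3 closest by the same ranking, and for CG7724 it was an Ank2 probe set (0.960). CG13305 and CG16798 shared 2 of their 3 closest transcripts outside the 7 genes. CG12054 correlated at 0.949 with CG13305 and 0.943 with CG16798, and CG16959 at 0.947 and 0.954. The others were CG14830 (0.943) for CG13305 and the splicing regulator gene mbl (0.947) for CG16798. CG8170 was closest to CG18507 (0.973), gpp (0.963), which encodes a histone methyltransferase, and mdy (0.952), which encodes an enzyme of triglyceride synthesis. Only Ugt35B1, Ank2 and CG32407 of these passed the rhythm threshold themselves (adjusted p = 0.0019, 0.0059 and 0.037, limma). None of these 3 calls held without the array set block (adjusted p = 0.78, 0.079 and 1.0, limma), and that of CG32407 also ended without each of the 10 arrays (0.056 to 0.19). For hts the probe set with the highest mean, 1632191_s_at, was closest to CG17202 (0.949), CG40439 (0.949) and ena (0.946), an actin regulator. The dawn probe set of hts was closest to Clk (0.974), a comparison added after its values were seen.

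Of the clock transcripts known for this part of the day, Clk peaked within the errors of the latest of the 8 probe sets and cry after them. Clk, at 9.71, 9.07 and 9.07 at ZT3, 8.66 at ZT7, 7.69 at ZT11, 6.90, 6.80 and 7.05 at ZT15, 7.98 at ZT19 and 9.53 at ZT23, had an amplitude of 1.24 ± 0.12 and a fitted peak at ZT1.96 ± 0.520 h (adjusted p = 0.011, limma). The clock gene cry peaked later, at ZT5.12 ± 0.459 h, with an amplitude of 0.93 ± 0.09 (adjusted p = 0.011, limma). Without the array set block the call of cry ended (adjusted p = 0.23, limma) and that of Clk stood at 0.050, still under the threshold. The call of Clk ended without each of the 3 ZT15 arrays and that of cry without 5 of the 10 arrays, each ZT15 array and ZT3 replicates 2 and 3, with adjusted p up to 0.070 and 0.068 (limma). At ZT7 cry was still at 10.92, against 11.21, 11.46 and 10.96 at ZT3, while CG13305 had lost most of its range in the set of 6.

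Genes that act with the 7, or belong to the same families, were taken from recalled lists and tested with p-values adjusted over all 12991 probe sets. Adducin works in the spectrin and actin skeleton beneath the membrane, and 16 genes of that skeleton and of adducin's known partners were tested beside hts. Of these 1 passed the rhythm threshold, Ank2, and 4 had an unadjusted p under 0.05, as had 7.91% of all tested probe sets. The median amplitude of the 16 was 0.12, and that of all tested probe sets 0.13. The spectrin genes alpha-Spec and beta-Spec had amplitudes of 0.06 ± 0.08 and 0.08 ± 0.06 (adjusted p = 1.0 and 0.99, limma). The scaffold gene dlg1 had an amplitude of 0.54 ± 0.12 with a peak at ZT20.2 and did not pass (adjusted p = 0.27, limma). For ZT15 against ZT3, 0 of the 16 passed in either direction (limma) and 2 had an unadjusted p under 0.05, as had 9.60% of all tested probe sets, with each gene counted once, by the probe set whose mean is highest.

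Ank2 encodes an ankyrin of neurons that ties spectrin to membrane proteins along axons and at synapses. Its probe set 1631662_a_at was at 11.42, 11.29 and 11.53 at ZT3, 10.68 at ZT7, 9.74 at ZT11, 10.36, 9.82 and 9.98 at ZT15, 11.01 at ZT19 and 12.32 at ZT23. The ZT23 array was the highest and the ZT15 arrays lay below the ZT3 arrays without overlap. Its amplitude was 1.12 ± 0.10 with a fitted peak at ZT23.8 ± 0.324 h (adjusted p = 0.0059, limma). It averaged 10.06 ± 0.28 at ZT15 and 11.41 ± 0.12 at ZT3 (SD, n = 3 each), a difference of -1.36 ± 0.12 (adjusted p = 0.046, limma), with -1.45 within the set of 4 and -1.17 within the set of 6. That call ended without the array set block (adjusted p = 0.63, limma), with the replicate number as a block (1.0) and without any 1 of the 6 arrays of ZT15 and ZT3 (0.15 to 0.36).

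Probe set 1633313_at, with the highest mean of the Ank2 probe sets, was at 13.55, 13.30 and 13.12 at ZT3, 12.70 at ZT7, 12.08 at ZT11, 12.63, 12.30 and 12.50 at ZT15, 13.04 at ZT19 and 13.68 at ZT23. Its amplitude was 0.72 ± 0.09 with a fitted peak at ZT23.6 ± 0.443 h (adjusted p = 0.028, limma). The other 3 Ank2 probe sets did not pass. Among them 1634770_at had an amplitude of 0.25 ± 0.13 and a fitted peak at ZT23.3 ± 1.72 h (adjusted p = 0.87, limma), and 1640337_a_at an amplitude of 0.11 ± 0.12 and a fitted peak at ZT23.1 ± 3.42 h (adjusted p = 1.0, limma). Probe set 1623451_at had an amplitude of 0.31 ± 0.14 and a fitted peak at ZT11.1 ± 1.42 h (adjusted p = 0.79, limma). The 2 Ank2 probe sets past the threshold thus had fitted peaks before ZT0. The peaks of the other 3, with SEs of 1.42 to 3.42 h and no call, do not fix a phase. The median of the 10 neuron genes was also highest on the ZT23 array, at 11.1, with 10.6 next on ZT3 replicate 3. None of those 10 genes passed the rhythm threshold (limma). The part of neuronal RNA in the Ank2 values was not tested. Without the array set block neither Ank2 call held (adjusted p = 0.079 for 1631662_a_at and 0.15 for 1633313_at, limma). The call of 1631662_a_at held with any 1 of the 10 arrays left out (adjusted p = 0.0047 to 0.038, limma), and that of 1633313_at held only without ZT19 (0.036) and ended without each of the other 9 arrays (0.054 to 0.11).

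**Figure D5:**
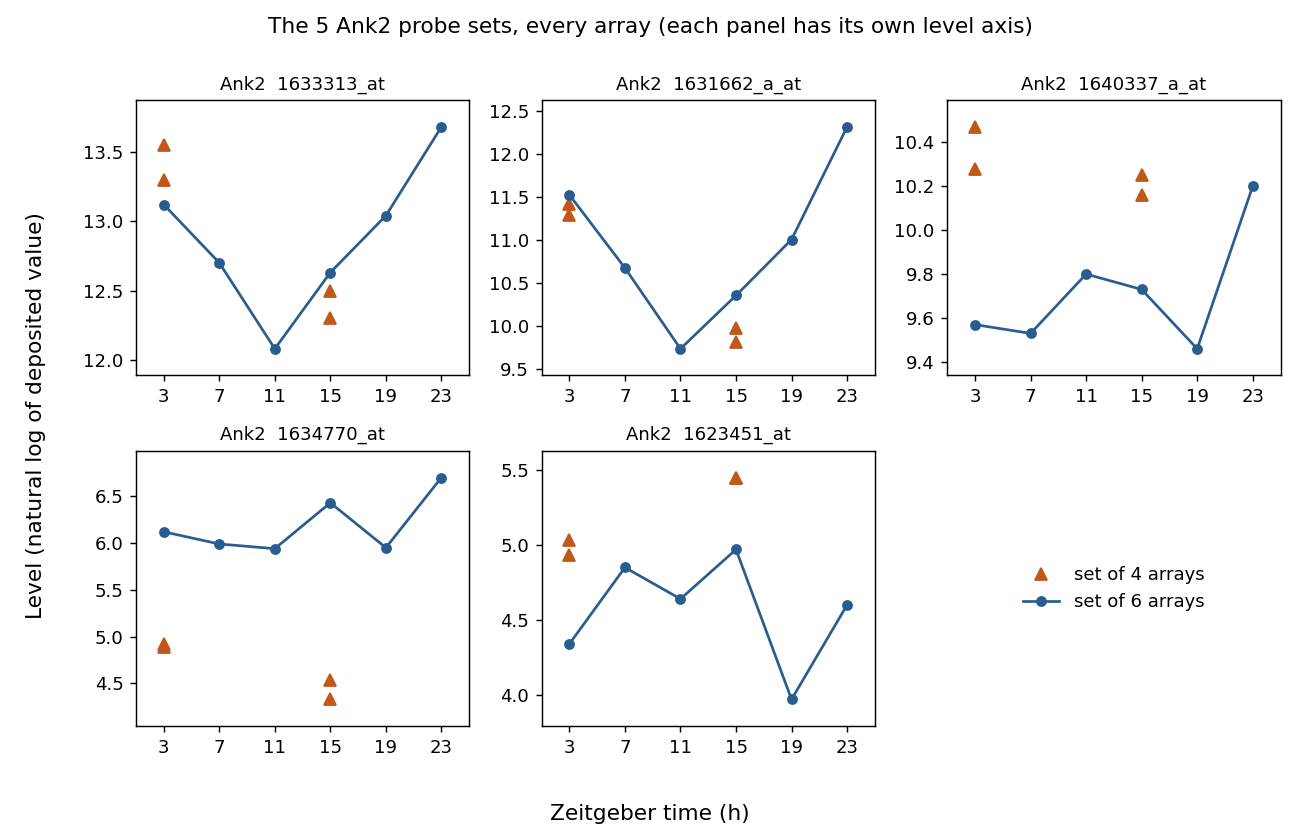
Level (natural log of the deposited value) against zeitgeber time in hours for the 5 Ank2 probe sets, with triangles for the set of 4 and joined circles for the set of 6. Probe sets 1633313_at and 1631662_a_at are highest at ZT23 (13.68 and 12.32) and lowest at ZT11 among the set of 6, as is 1634770_at within a narrower range of 5.94 to 6.70.

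No other tested gene of the enzyme families passed the rhythm threshold (limma). Of 21 listed serine proteases and homologues other than CG8170 and CG31205, 17 had a probe set and 10 were tested. Among the 10 were SPE, psh and grass, which act in the Toll immune pathway. None of the 10 passed (limma), and 0 had an unadjusted p under 0.05. Their largest amplitude was 0.21 and their median 0.14. Of 14 listed acyltransferases of the NRF-6 type other than CG42329, 12 had a probe set and 6 were tested. None of the 6 passed (limma), and 2 had an unadjusted p under 0.05. These were CG31189, with an amplitude of 0.36 ± 0.08 and a peak at ZT0.801 (adjusted p = 0.23, limma), and CG3106, with 0.43 ± 0.12 and a peak at ZT14.1 (adjusted p = 0.44, limma).

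The nearest protein-coding genes in the genome were compared as well, with 2 on each side of each of the 7 genes in the RefSeq annotation of Release 6. Of these 28 neighbours, 23 had a probe set and 17 were tested. None of the 17 passed the rhythm threshold (limma), and 2 had an unadjusted p under 0.05. These 2 were CG5397 beside CG42329, with an amplitude of 0.32 ± 0.09 and a peak at ZT13.2, far from that of CG42329, and Ance-4 beside CG8170, with 0.13 ± 0.05 and ZT4.73. The largest amplitude among the 17 was that of CG5011 (0.40 ± 0.16), also beside CG42329. CG13747, which overlaps CG8170 in the annotation, had an amplitude of 0.28 ± 0.33. Arr2, next to CG13305 and one of the arrestins that shut off the light response, was at 15.4 on average with an amplitude of 0.05 ± 0.06. The median amplitude of the 17 was 0.13. This comparison was added after the values of the 7 genes were seen.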

How the data were processed

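Total RNA of fly heads was extracted with Trizol, labelled with biotin and hybridised to 10 Affymetrix arrays, per the labels. The authors deposited an intensity for every probe set on each array. GCRMA is named in the submitters' processing notes, with its version not given in the sources used here. For every value the natural log was used, because the largest (8527900) exceeds any 16-bit scan while its log fits a GCRMA log2 value. Of 18952 probe sets, 183 controls were left out, and 12991 of 18769 with a mean of at least 4 were tested. The platform annotation gave 1 symbol to 13647, several to 402 and none to 4720; list genes were matched through RefSeq symbols and synonyms.

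The cosine (period 24 h, all 10 arrays), ZT15 minus ZT3 (6 arrays) and array set fits used limma 3.58.1 in R 4.3.3. P-values had Benjamini-Hochberg adjustment over all tested probe sets, with a threshold of 0.05. The cosine and ZT15 minus ZT3 fits were tested on simulated data, and the array set difference was not. Array sets came from average-linkage clustering of array correlations cut into 2. The genes, lists and the set block were chosen with earlier results of these data known. Named genes were all probe sets of the 7 genes, the 3 most correlated transcripts of each gene's probe set with the highest mean, called probe sets nearest ZT0 and ZT2, listed genes past the threshold, Clk and cry; other examples were chosen after their values were seen. A listed gene counts by that probe set as well. The number of arrays limits the precision. Alternatives were the set and replicate blocks, scale, pseudocount, filter, normalization, variance prior and left-out arrays. Relatives by protein sequence were not analysed here.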

Additional observations from a re-analysis of the deposited data

How the results depend on the processing

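The count of rhythmic probe sets, 66 with the array set block, was 5 without it and 13 to 72 with 1 array left out. The count for ZT15 against ZT3, 20 with the array set block, was 4 without it, 102 with a trended and robust prior, 13 when arrays were quantile normalized and 0 to 5 with 1 array left out (limma, 897 to 1345 at an unadjusted p under 0.05). With the replicate block and no array set block it was 0 (106 at an unadjusted p under 0.05). Deviations of ZT3 and ZT15 arrays with the same number correlated at -0.893, 0.804 and -0.903 for replicates 1, 2 and 3. Replicate 2 has both arrays in the set of 4, and replicates 1 and 3 have 1 array in each set. The signs follow the array sets, so they cannot show whether arrays with the same number were paired. The single listed gene past the rhythm threshold, Ank2, became 0 without the array set block and 0 to 1 with 1 array left out. On the log2(value + 1) scale the median amplitude of the 11 probe sets, 0.67, became 0.96 and their median ZT15 minus ZT3, -0.91, became -1.31, which is the construction of that scale. Other causes were not tested. Of the 11 probe sets, 5 passed the rhythm threshold after quantile normalization, 6 after median centring and 8 with the pseudocount, the log2(value + 1) scale or the trend and robust prior. No sign of ZT15 minus ZT3 reversed in the alternatives run. With 1 array left out the amplitudes of the 8 probe sets past the rhythm threshold stayed between 0.42 and 1.69. Times other than ZT3 and ZT15 rest on a single array, so their levels carry no replicate error.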
